A study of Ovis aries with 18 samples.

Results

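miR-16b, the microRNA listed in the deposited counts as oar-miR-16b, was the most abundant of 364 features in sheep plasma. It was chosen by its share of the counts, the largest in each of 18 libraries, so its rank and the size of its share are given as a description. The 364 features comprise 107 with a miRNA name and 257 without one, written here as "unnamed miRNA" with their running number. The plasma came from 12 Polish Longwool ewes, all ovariectomized and all carrying estradiol implants. In the CTRL group 6 ewes were kept on a standard (control) diet, and in the OBESE group 6 ewes were fed a high-fat diet over 14 weeks. Plasma was taken at weeks 7, 10 and 14, which gave 6 groups of diet and week with 3 libraries each. The ewes' age is not among the labels. Nothing in the labels ties a library to 1 ewe or to a pool, so each p-value measures only library-to-library spread, which may be partly technical, and the same ewes may recur across weeks within a diet.

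miR-16b belongs to the miR-15/16 family, small RNAs that guide Argonaute proteins to messenger RNAs with a matching seed site and lower their output. Known targets of the family include cyclins and the survival factor BCL2, and its members slow the cell cycle. Red blood cells hold large amounts of miR-16 and of miR-451, so plasma in which red cells have burst carries more of both, while miR-23a is little affected and serves as the usual denominator in a test for such haemolysis. miR-16 is also found in platelets and white cells and in plasma itself, bound to proteins and in vesicles. RefSeq's genes for sheep (assembly ARS-UI_Ramb_v3.0) place MIR16B within the span of SMC4, a condensin subunit gene, with TRIM59 and IFT80 as nearest neighbours. It was the only gene symbol of the miR-15/16 family found in that table.

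miR-16b took between 42.7% and 55.1% of the counts of a library, with a median of 45.9% and a coefficient of variation of 7.50%. At week 7 the shares were 53.9%, 46.5% and 45.1% in the CTRL libraries and 45.6%, 43.6% and 51.4% in the OBESE libraries. At week 10 they were 45.2%, 50.1% and 45.8% in CTRL and 42.7%, 44.9% and 45.95% in OBESE. At week 14 they were 44.02%, 47.6% and 55.1% in CTRL and 44.6%, 46.5% and 50.02% in OBESE. The values are in the order of the replicate numbers. The highest shares stood in CTRL week 14 replicate 3 and CTRL week 7 replicate 1, the lowest in OBESE week 10 replicate 1, and the diets overlapped at each week.

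**Figure D1:**
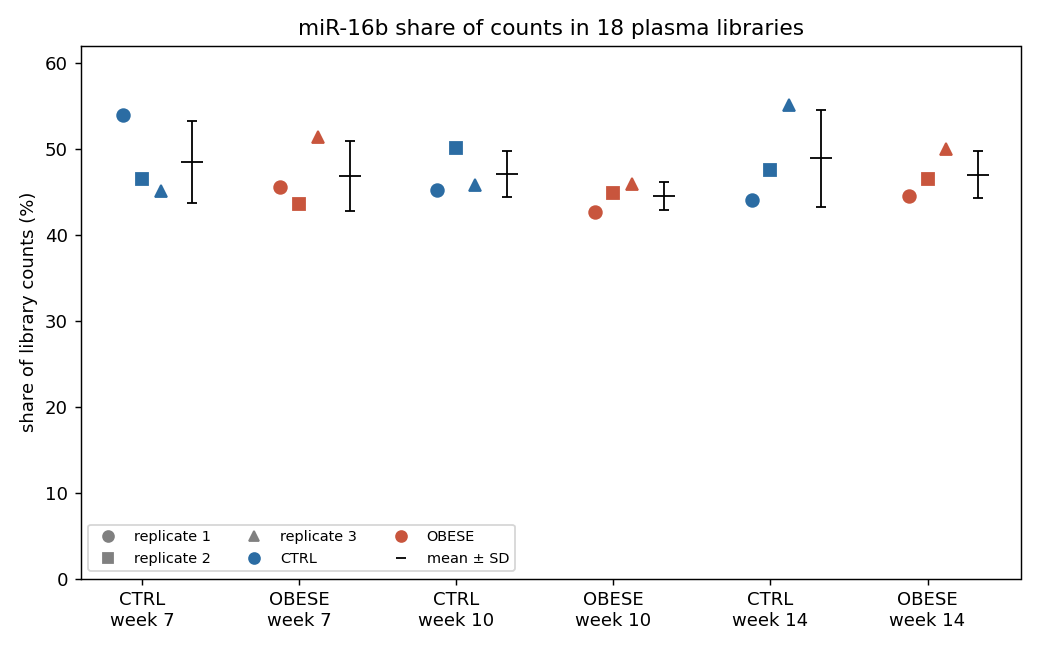
Share of library counts taken by miR-16b (y axis, percent) in the 6 groups of diet and week (x axis). Each point is a library, with the symbol giving its replicate number, and the bars are mean ± SD of 3 libraries. All 18 points lie between 42.7% and 55.1%, and CTRL and OBESE points overlap at each week.

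The group with the highest mean share was CTRL week 14, at 48.9% ± 5.65 (SD, n = 3), and the lowest was OBESE week 10, at 44.5% ± 1.65. Between them came CTRL week 7 (48.5% ± 4.74), CTRL week 10 (47.05% ± 2.68), OBESE week 14 (47.02% ± 2.77) and OBESE week 7 (46.9% ± 4.07). In this order of 6 groups, 4 of the 5 steps between neighbours were smaller than both groups' SD. The step from OBESE week 7 to OBESE week 10 was 2.34 percentage points, larger than the SD of the lower group and smaller than that of the higher one.

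The counts behind these shares were large. miR-16b had from 175797 to 581358 counts in libraries of 388574 to 1269829 counts in total. The 95% Wilson interval of the highest week 7 share, in CTRL replicate 1, ran from 53.8% to 54.04%, which covers counting error only. Differences between libraries of the same group were therefore far larger than counting error. Total count and share were unrelated by the test over the 18 libraries (r = 0.0016, permutation p = 0.995).

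miR-16b stood 2.49 to 4.18 times above the second feature of the same library, which was unnamed miRNA 1 or unnamed miRNA 2. The mean of this ratio was 3.37 ± 0.421 (SD, n = 18). Among counts with a miRNA name, miR-16b took 62.2% to 80.8%, with a mean of 69.6% ± 4.83. No other member of the miR-15/16 family was counted under its name: of 10 family names searched (miR-15a, miR-15b, miR-16, miR-16a, miR-16b, miR-195, miR-497, miR-424, miR-322 and miR-503) the files used here hold 1. The unnamed features come with no sequence, so it is unknown whether any of them is a family member or a near-identical copy that shares reads with miR-16b.

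The diets were then compared for the amount of miR-16b relative to the other miRNAs. Its level was lower in OBESE than in CTRL libraries on average at each week, but the difference did not pass the test at any week or over all 3. Levels are given as CPM, counts relative to the library total, scaled by TMM, a method that sets the library scale by the bulk of features so that 1 abundant feature does not depress the rest. At week 7 the CTRL libraries stood at 826077, 492015 and 430997 CPM and the OBESE libraries at 413567, 382162 and 577118 CPM. At week 10 CTRL stood at 419069, 515334 and 459748 CPM and OBESE at 357922, 443764 and 416679 CPM. The values at week 14 were 396062, 458015 and 767194 CPM in CTRL and 391501, 470756 and 468900 CPM in OBESE. The same CTRL libraries as for the share, week 7 replicate 1 and week 14 replicate 3, were the highest, and the diets overlapped at each week.

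Averaged over weeks, the fitted difference was a log2 fold change of -0.28 (SE 0.149, 95% interval -0.59 to 0.04). Its p in edgeR's quasi-likelihood test was 0.0812 and its Benjamini-Hochberg adjusted p was 0.465. In this comparison 0% of the 168 tested features passed an edgeR adjusted p of 0.05. An unadjusted p under 0.05 was reached by 19 features (11.3%) in edgeR, 20 in limma-voom and 27 in DESeq2, which was run on all 364 features, with 0, 0 and 3 calls, and miR-16b was not called by any of the 3 tools. By its p, miR-16b ranked 29th of 168.

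At single weeks the log2 fold change of OBESE against CTRL was -0.35 at week 7 (SE 0.258, edgeR adjusted p = 0.766), -0.19 at week 10 (SE 0.258, edgeR adjusted p = 0.837) and -0.28 at week 14 (SE 0.258, edgeR adjusted p = 0.81). The share of features called by edgeR was 0% at each of the 3 weeks. Unadjusted p under 0.05 numbered 9 (5.36%), 11 (6.55%) and 13 (7.74%) in edgeR, 10, 13 and 13 in limma-voom and 15, 16 and 15 in DESeq2, and both other tools made 0 calls. The interaction of diet and week had an edgeR p of 0.913 for miR-16b (adjusted 0.988), so a difference between the weeks in the effect of diet did not pass the test.

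Both CTRL libraries that stood high also had low TMM factors, and they carried most of the fitted diet difference. Both were chosen with their high values known, so leaving them out shrinks a difference in this direction by construction. Without them the CTRL level of miR-16b was 453035 ± 41545 CPM (SD, n = 7), against 529390 ± 156421 CPM with them (n = 9) and 435819 ± 65303 CPM in OBESE (n = 9). The log2 fold change averaged over weeks was then -0.051 (SE 0.113, edgeR adjusted p = 0.895), and at week 14 its sign turned to 0.064 (SE 0.204). At week 7 it was -0.061 and at week 10 it was -0.16. With both CTRL libraries kept and only the highest OBESE library (week 7 replicate 3) left out, the averaged difference was -0.37 (SE 0.156, edgeR adjusted p = 0.377). Without TMM factors, where CPM is a plain share of the total, the averaged difference was -0.062 (SE 0.0722) and the median of all features moved from near 0 to 0.16.

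**Figure D2:**
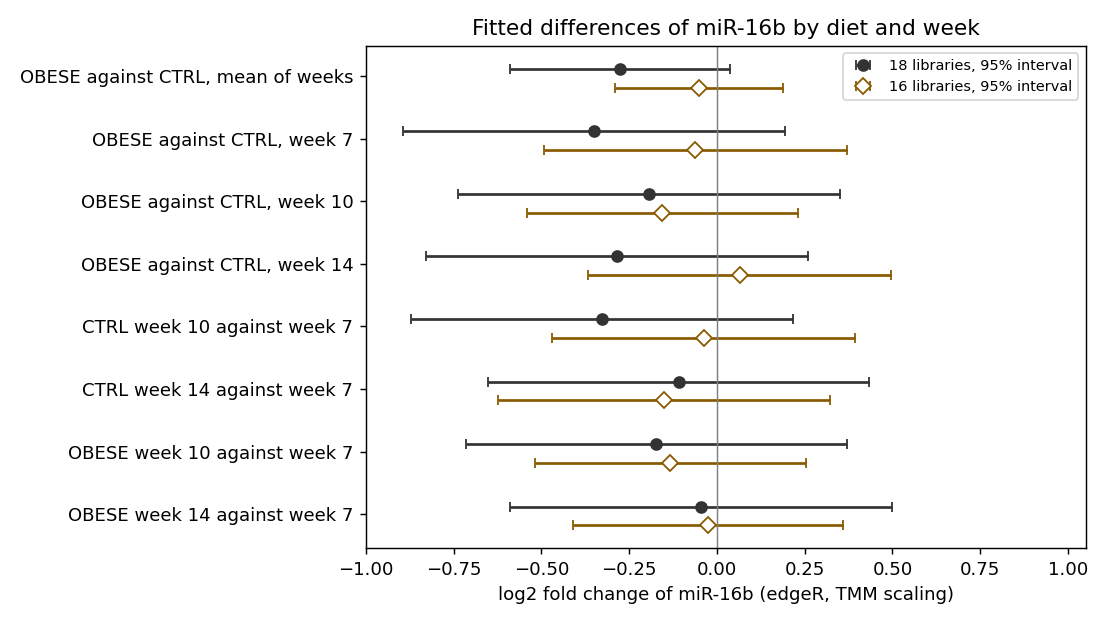
Fitted log2 fold changes of miR-16b (x axis) for 4 comparisons of diet and 4 of week (y axis), with 95% intervals. Filled circles are from all 18 libraries and open diamonds from the 16 left without CTRL week 7 replicate 1 and CTRL week 14 replicate 3. Every interval includes 0, and the averaged diet difference moves from -0.28 to -0.051.

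The share itself, which needs no TMM factor, was 2.02 percentage points lower in OBESE (two-sided exact permutation of diet within weeks, 8000 assignments, p = 0.25025, and 0.292 after Benjamini-Hochberg adjustment over the share and 2 ratios given below). The single weeks gave differences of -1.64 points (exact p = 0.6), -2.53 points (exact p = 0.3) and -1.88 points (exact p = 0.7), where 3 libraries against 3 cannot give less than 0.1. The averaged difference was -0.20 points without both high libraries.

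Time on the diet was compared with week 7 as the base. The level of miR-16b did not differ between weeks in either diet by the test. In CTRL the log2 fold change was -0.33 at week 10 (SE 0.258, 95% interval -0.87 to 0.22, edgeR adjusted p = 0.947) and -0.11 at week 14 (SE 0.258, 95% interval -0.65 to 0.43, edgeR adjusted p = 0.977). In OBESE it was -0.17 at week 10 (SE 0.258, 95% interval -0.72 to 0.37, edgeR adjusted p = 0.993) and -0.044 at week 14 (SE 0.258, 95% interval -0.59 to 0.50, edgeR adjusted p = 0.993). edgeR called 0% of features in each of these 4 comparisons, with 3 (1.79%), 6 (3.57%), 7 (4.17%) and 13 (7.74%) at an unadjusted p under 0.05. limma-voom gave 3, 5, 6 and 12 and DESeq2 gave 5, 7, 8 and 15, both with 0 calls. The CTRL week 10 value was -0.038 without both high libraries.

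Relations to other miRNAs were examined as a sign of red blood cell RNA. Of 19 names on a list of red blood cell miRNAs, the files used here hold miR-16b, miR-25 and miR-106b. The defining red cell miRNAs miR-451, miR-144 and miR-486 have no named feature, and neither has miR-92a, so the most direct markers could not be read. miR-25 and miR-106b come from 1 primary transcript in mammals. Together they took 0.12% to 0.183% of counts in CTRL and 0.127% to 0.168% in OBESE libraries, and the diets overlapped. All 3 list members, miR-16b among them, had a negative averaged diet difference and 0 of 3 passed the test. The median over all tested features was -0.0022. The log2 difference was -0.21 for miR-25 (SE 0.175, edgeR adjusted p = 0.568) and -0.40 for miR-106b (SE 0.192, edgeR adjusted p = 0.408). The highest miR-25 levels, 2516 and 1899 CPM, stood in CTRL week 7 replicate 1 and CTRL week 14 replicate 3. The sign for miR-25 without these libraries was not tested. With 3 members, the median of the list (-0.28) is the value of miR-16b itself. In plasma, RNA from more broken cells of a type and more RNA per cell cannot be told apart.

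The ratio of miR-16b to miR-23a counts is the form that a haemolysis test takes, here with miR-16b in place of miR-451. It varied 4.50-fold between libraries, from 330.2 to 1486. At week 7 it was 1486, 733 and 447 in CTRL and 390.3, 432 and 837 in OBESE libraries. At week 10 it was 553, 526 and 484 in CTRL and 330.2, 344 and 493 in OBESE. At week 14 it was 526, 739 and 1314 in CTRL and 498, 712 and 947 in OBESE. CTRL week 7 replicate 1 and CTRL week 14 replicate 3 again had the highest values, and the remaining libraries lay below 950. miR-23a had 240 to 1530 counts in a library, so counting alone would give the log2 ratio an SD of 0.0647, against the 0.614 measured.

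On the log2 scale this ratio averaged 9.43 ± 0.629 for CTRL against 9.01 ± 0.555 for OBESE (SD, n = 9 each), a difference of -0.41 (two-sided exact permutation within weeks, p = 0.11925, adjusted 0.292). The difference was -0.60 at week 7 (exact p = 0.4), -0.44 at week 10 (exact p = 0.2) and -0.20 at week 14 (exact p = 0.6). It was -0.12 without both high libraries (exact p = 0.56). No threshold for haemolysis in sheep plasma is at hand, so the ratio ranks the libraries and classifies none.

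By week, the log2 ratio to miR-23a was lowest at week 10 in both diets. It stood at 8.80 ± 0.321 at week 10 and 9.54 ± 0.526 at week 14 (SD, n = 6 each, both diets). The difference of 0.74 had an exact permutation p of 0.015 within diets, which became 0.135 after Benjamini-Hochberg adjustment over 9 comparisons of weeks, so it did not pass the test. Without both high libraries it was 0.56 (exact p = 0.015). In OBESE libraries weeks 10 and 14 did not overlap (exact p = 0.1, the smallest possible), and in CTRL libraries they did (exact p = 0.2). Week 7 stood at 9.32 ± 0.744 and overlapped both. The share of miR-16b moved in the same order, with 45.8% ± 2.43 at week 10 and 48.0% ± 4.11 at week 14 (exact p = 0.295). In log2 CPM with TMM scaling, miR-16b stood at 18.72 ± 0.175 at week 10 and 18.87 ± 0.354 at week 14. On that scale most of the 0.74 thus came from lower miR-23a at week 14 and not from miR-16b.

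**Figure D3:**
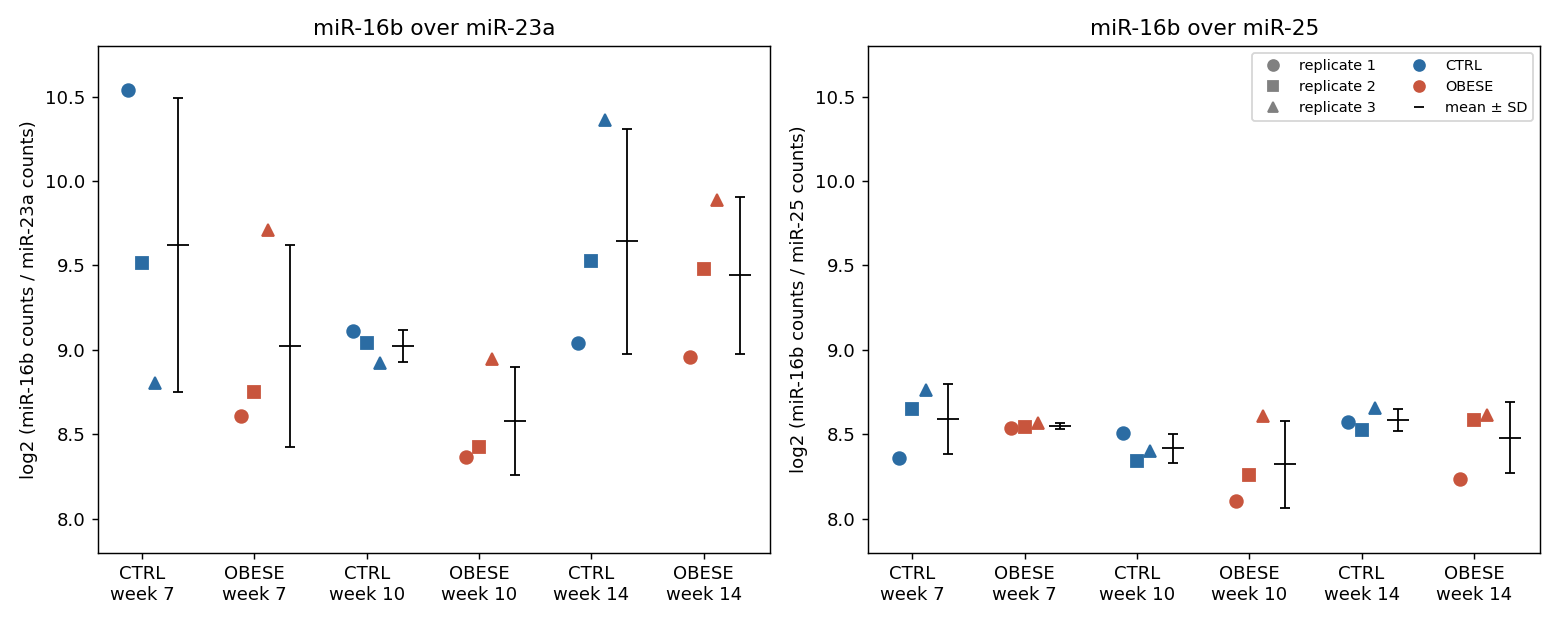
Log2 ratio of miR-16b counts to miR-23a counts (left) and to miR-25 counts (right) in the 6 groups of diet and week. Points are libraries and bars are mean ± SD of 3. On the same y axis, the ratio to miR-23a spreads over 4.50-fold and the ratio to miR-25 over 1.58-fold.

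Over all 18 libraries, miR-25 followed miR-16b most closely by the SD of the ratio and by r on the TMM scale. The ratio of miR-16b to miR-25 lay between 274.9 and 434 in all 18 libraries, with a mean of 362 ± 41.3 (SD, n = 18). The SD of its log2 was 0.171, the smallest among 167 features, whose median was 0.621. Without both high libraries it was 0.174, and let-7i (0.148) and let-7a (0.169) lay closer to miR-16b. Counting alone would give 0.0492 from the 428 to 1756 miR-25 counts of a library. The log2 ratio was 8.53 ± 0.145 in CTRL and 8.45 ± 0.194 in OBESE (difference -0.08, exact p = 0.292). Between weeks the exact p was 0.075 or more (adjusted 0.28125 or more). The week 10 value was lower than the week 7 value by 0.20 with all libraries, and by 0.26 without both high libraries (exact p = 0.035, unadjusted).

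Over the 18 libraries, log2 CPM of miR-25 and miR-16b correlated with r = 0.87 (permutation p = 3e-05, adjusted over 21 listed miRNAs 0.00063) and rho = 0.64 (permutation p = 0.00497, adjusted 0.0522). Libraries of 1 diet may share ewes, and both values carry the same TMM factor. Without both libraries farthest from the median of miR-16b, which were again CTRL week 7 replicate 1 and CTRL week 14 replicate 3, r was 0.58 (permutation p = 0.0167, adjusted 0.117). The relation thus rests in large part on them. Means by diet and replicate number allow for shared ewes only if a number marks the same ewe or pool over weeks, which the labels do not say. On these 6 means r was 0.79 (exact permutation p = 0.0597, adjusted 0.314), so the call was lost. Within CTRL, which includes both high libraries, r was 0.95 (n = 9, exact p = 0.000171, adjusted 0.00359). Within OBESE it was 0.52 (n = 9, exact p = 0.148, adjusted 0.437). With each group's mean removed and both high libraries kept, r was 0.90 (permutation p = 1e-05, the smallest the permutations can give, adjusted 0.00021). That p may be too small, because the permutations ignore that the means of 6 groups were taken out. Scaled to all counts but those of miR-16b, r was 0.71 (adjusted permutation p = 0.0077), and scaled to the plain total 0.36 (adjusted permutation p = 0.188).

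miR-106b, in the same primary transcript as miR-25, correlated less with miR-16b, at r = 0.40 and rho = 0.26 (permutation p = 0.102, adjusted 0.306). It had only 45 to 216 counts in a library, against at least 428 for miR-25. The SD of its log2 ratio to miR-16b was 0.474, and counting alone would give 0.142.

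No marker of other blood cells passed the test against miR-16b on the TMM scale with all libraries and group means kept. Some passed with group means removed or on other scales. The platelet list had 3 of 7 names in the files: miR-191 had r = -0.14 (permutation p = 0.574, adjusted 0.67), miR-21 r = -0.53 (permutation p = 0.0208, adjusted 0.0875) and miR-199a-3p r = 0.18 (permutation p = 0.473, adjusted 0.654). Their rho values were -0.17, -0.54 and 0.12. Their summed share ran from 2.13% to 4.43% in CTRL and from 2.64% to 5.67% in OBESE libraries, and the platelet markers miR-223 and miR-126 have no named feature. miR-150, a lymphocyte miRNA and the 1 found of 7 names on the lymphocyte and myeloid list, had r = -0.28 and rho = -0.22 (permutation p = 0.26, adjusted 0.654), with shares of 0.175% to 1.27% in CTRL and 0.314% to 2.71% in OBESE. miR-23a had r = -0.56 and rho = -0.56 (permutation p = 0.0151, adjusted 0.0793). Without both high libraries r was -0.38 for miR-21 and -0.36 for miR-23a. With each group's mean removed r was -0.72 for miR-21 (adjusted permutation p = 0.00798, which may be too small because the permutations ignore the removed means). Scaled to all counts but those of miR-16b, r was -0.75 for miR-23a (adjusted permutation p = 0.00451), -0.61 for miR-21 (adjusted permutation p = 0.0375) and -0.58 for miR-191 (adjusted permutation p = 0.0408).

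**Figure D4:**
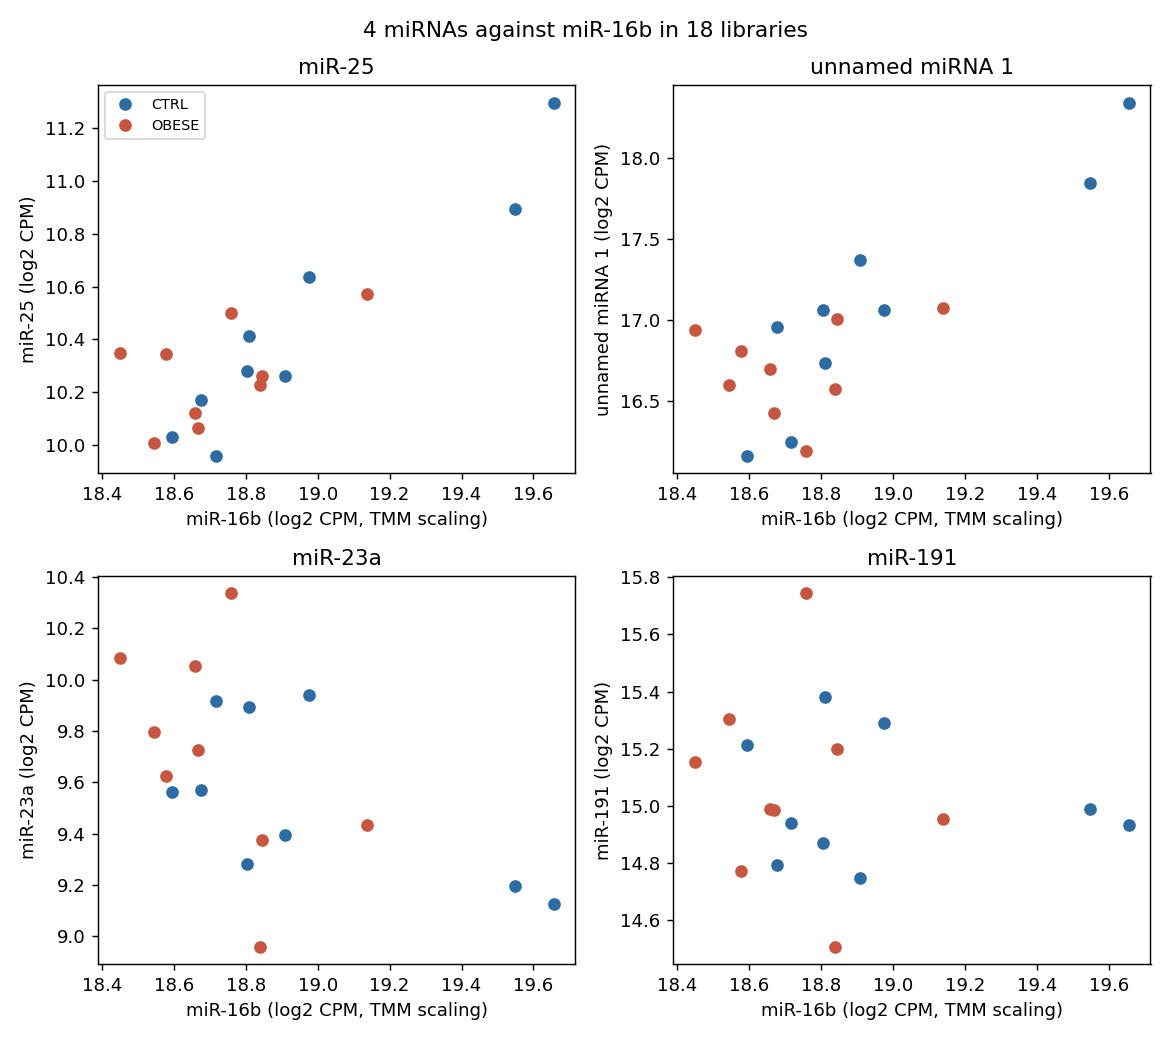
Log2 CPM (TMM scaling) of miR-25, unnamed miRNA 1, miR-23a and miR-191 (y axes) against that of miR-16b (x axes) in 18 libraries, CTRL blue and OBESE red. The CTRL libraries at the right edge are week 7 replicate 1 and week 14 replicate 3. With all libraries r is 0.87, 0.81, -0.56 and -0.14.

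Over the list of 21 miRNAs, 14 correlated positively with miR-16b and 7 negatively, with a median r of 0.15, and 1, miR-25, passed after adjustment of the Pearson permutation p. The sign of most of these relations depends on the scale. Per other counts 3 were positive and 18 negative, and per plain total 1 was positive and 20 negative. Over all 167 other tested features these numbers were 49 and 118 per other counts, and 25 and 142 per plain total. On the plain total a larger share of miR-16b leaves less to the rest, so negative signs there are largely built in. let-7i and let-7c, members of the let-7 family of growth regulators, had r = 0.64 and 0.60 (adjusted permutation p = 0.059 and 0.0793). For let-7i rho was 0.74 (adjusted permutation p = 0.0134).

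Over all 167 other tested features, 80 correlated positively with miR-16b and 87 negatively, with a median r of -0.02. Values above 0.5 numbered 11 (6.59%) and values below -0.5 numbered 9 (5.39%). Scaled to all counts but those of miR-16b, they numbered 4 (2.4%) and 27 (16.2%). On the TMM scale the 5 highest were miR-25 (0.87), unnamed miRNA 1 (0.81), unnamed miRNA 25 (0.73), unnamed miRNA 23 (0.67) and let-7i (0.64). Without both high libraries they were 0.58, 0.43, 0.50, 0.13 and 0.62, and let-7c stood above all 5 at 0.67. The 5 lowest were unnamed miRNA 47 (-0.71), unnamed miRNA 42 (-0.61), miR-27a (-0.58), unnamed miRNA 51 (-0.58) and unnamed miRNA 90 (-0.57), and without both high libraries -0.58, 0.03, -0.40, 0.17 and -0.50. miR-27a is made from the same primary transcript as miR-23a. Apart from miR-25, let-7i and let-7c, which were tested in the list above, these values describe the libraries and were not tested.

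**Figure D5:**
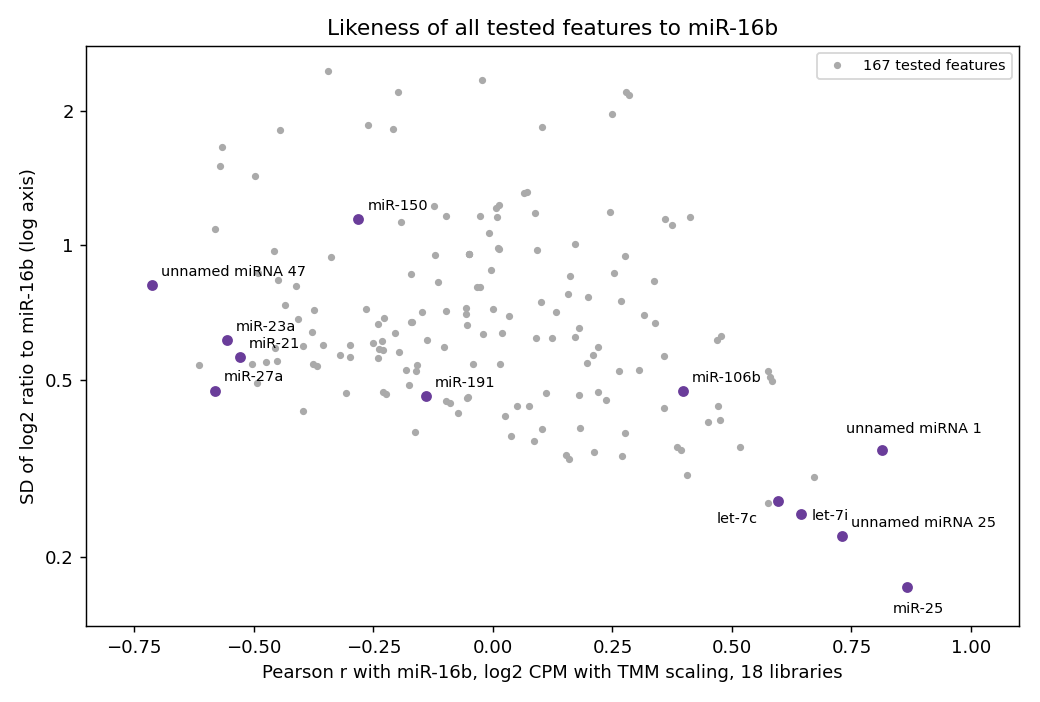
Pearson r with miR-16b over 18 libraries (x axis) against the SD of the log2 ratio to miR-16b (y axis, log axis) for 167 tested features. miR-25 lies at the lower right, with r = 0.87 and an SD of 0.171, and miR-23a at the left with r = -0.56.

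By the SD of the log2 ratio, which needs no library scale, the features closest to miR-16b after miR-25 were unnamed miRNA 25 (0.224), let-7i (0.249), unnamed miRNA 15 (0.264) and let-7c (0.267). Without both high libraries the order changed, to let-7i (0.148), let-7a (0.169), miR-25 (0.174), unnamed miRNA 15 (0.191) and let-7c (0.192). miR-150 lay far away, its ratio to miR-16b varying 18.6-fold between libraries. The SD of log2 CPM of miR-16b itself was 0.322, which ranked 39th from the lowest of 168. Those 168 include features with far fewer counts. The SD was lower for let-7b (0.253), let-7g (0.216), miR-191 (0.285) and let-7a (0.166), the named features next in abundance. Unnamed miRNA 1 varied more, from 73333 to 332261 CPM, against 357922 to 826077 CPM for miR-16b.

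The TMM factors were set beside the share of miR-16b. The TMM factor, from 0.653 to 1.19, was lower where the share of miR-16b was higher (r = -0.88, rho = -0.85, permutation p = 1e-05, adjusted over 4 relations 4e-05). Without the 2 libraries farthest from the median r was -0.72. Against the log2 ratio to miR-23a, r was -0.82 (permutation p = 0.00011), and -0.55 without the 2 farthest. The factor is computed from the same counts as the share. A larger share of miR-16b leaves less of the total to the features that set the factor. A negative r with the share is therefore largely built in, and its p is no separate evidence. The part of red blood cell RNA in these differences was not tested.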

How the data were processed

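Per the labels' protocols, RNA from 200 µL of plasma went into QIAseq miRNA libraries, which carry molecular identifiers, and AVITI sequencing gave single-end reads of 76 bases. Tools listed, without roles, per the submitters' processing notes are cutadapt 4.9, Bowtie 1.3.1 and DESeq2 1.42. No source used here gives the genome build or miRNA annotation, so coordinates are left out. The authors deposited raw counts per feature. Whether these are molecules or reads is not stated, and intervals cover counting error only.

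Counts were fitted with edgeR 4.0.16 in R 4.3.3 (filterByExpr, minimum count 10 and minimum total 15, 168 of 364 features kept, TMM, 1 quasi-likelihood model with 6 groups). The adjusted p threshold was 0.05 over the 168 features. limma 3.58.1 (voom) and DESeq2 1.42.0 were alternatives. The edgeR and exact permutation steps were tested on simulated data. Correlations used log2 CPM (prior count 2) and 100000 permutations, or all permutations within a diet. Ratios are of counts. Sequences are not printed. The miRNA, the lists, the rule for named miRNAs (the listed ones found, the most abundant, and the 5 highest and 5 lowest correlations) and the tests were chosen with earlier results of these data known. The comparison of weeks by ratio and the removal of both high libraries were added after seeing the data.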

Additional observations from a re-analysis of the deposited data

How the results depend on the processing

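Alternatives changed no diet or week call for miR-16b. Over all alternatives in edgeR, DESeq2 and limma-voom, the averaged diet difference had an adjusted p of 0.231 to 0.895. Its unadjusted p was 0.031 to 0.659, so it fell under 0.05 in some of them. With single libraries left out this difference (log2) was -0.37 to -0.19 (-0.55 to -0.05 at week 7, -0.23 to -0.04 at week 10, -0.49 to -0.02 at week 14). For CTRL these ranges were -0.50 to 0.053 (week 10) and -0.37 to 0.30 (week 14), for OBESE -0.17 to 0.10 and -0.10 to 0.15. Signs turned at week 14 without both high libraries (0.064), without TMM for CTRL (0.012) and OBESE (0.0051) week 14, and without the count filter for OBESE week 10 (0.046); the cause was not tested. With single libraries left out, the share differed by -2.68 to -1.15 points, the log2 ratio to miR-23a by -0.52 to -0.27 and that to miR-25 by -0.10 to -0.04. Without both high libraries these were -0.20 points, -0.12 and -0.087. Among named features alone and with all libraries, the share differed by -3.31 points, with means of 71.3% in CTRL and 68.0% in OBESE. The CTRL mean of this share was 68.9% without both high libraries. Features called for the averaged diet difference numbered 0 in edgeR, 4 in edgeR without the count filter and 3 in DESeq2 (the last 2 over 364 features). Summed over weeks by replicate number, the averaged difference was -0.22 (edgeR adjusted p = 0.639).

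Listed correlations called, 1 in the main setting, numbered 6 scaled to the other counts, 8 scaled to the total, 0 without both high libraries, 2 with group means removed and 0 on means over weeks, where r for miR-25 was 0.79. The 8 scaled to the total were all negative, a sign that is largely built in on that scale. Among the 7 blood-cell and reference miRNAs of the list, signs turned for miR-106b (-0.0058 scaled to the other counts and -0.24 scaled to the total), miR-191 (0.036 with group means removed), miR-199a-3p (-0.064, -0.35, -0.021 and -0.047, the last on means over weeks) and miR-150 (0.083 without both high libraries). Signs also turned for most other listed miRNAs, such as let-7i (0.64 in the main setting and -0.53 scaled to the total).

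With group means removed, 16 of 18 same-numbered pairs of libraries within a diet correlated above 0.1 (lowest -0.025). Their median r was 0.35, against -0.17 for 36 differently numbered pairs. Removing the means of 3 libraries pulls the latter below 0 where the former lie above it. Among libraries of their diet at other weeks, 17 of 18 libraries correlated best with their own number, a hint from the data and not from the design. With the replicate number as a block the averaged diet difference was -0.28 (edgeR adjusted p = 0.396) and no feature was called; nor was any with a block within diet for the week comparisons. The 196 features left out by the filter on low counts were not compared with miR-16b.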
